A study of Mus musculus with 19 samples.

Results

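Tissue inhibitors of metalloproteinases (TIMPs), matrix metalloproteinases (MMPs) and ADAMTS proteases were followed in mouse heart ventricles after loss of the mitochondrial pyruvate carrier. The account covers 10 genes chosen by symbol, Timp1, Timp2, Timp3, Timp4, Mmp2, Mmp14, Mmp23, Adamts1, Adamts2 and Adamts5, out of 55536 genes in the count files. No measured value entered the rule, but the genes were proposed with earlier results of these data known. Total RNA of ventricles, depleted of ribosomal RNA, was sequenced from mice labelled MPC1 knockout 8 weeks (KO-8, 4 libraries) or 16 weeks (KO-16, 5 libraries) after the knockout was induced in the adult heart, and from wild-type mice of the same times (WT-8, 5 libraries, and WT-16, 5 libraries). The source text calls the knockout inducible and heart specific; the Cre driver, the strain and the age and number of animals are not given in the sources used here. Whether each library is a separate animal is not stated either, so each p-value reflects variation among libraries.

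MMPs and ADAMTS enzymes are zinc proteases that cut collagens, proteoglycans and other matrix proteins outside the cell, and TIMPs are small secreted proteins that block their active site. Mmp14, an MMP anchored in the cell membrane, activates the precursor of the gelatinase Mmp2 in a complex that also contains Timp2. Adamts2 trims the amino-terminal propeptide from fibrillar procollagens, while Adamts1 and Adamts5 cut versican and aggrecan. Timp3 binds to the matrix and also blocks ADAMTS and ADAM enzymes. In heart, interstitial fibroblasts are a main source of several of these transcripts, and RNA of whole ventricles cannot tell fewer cells of a type from less RNA per cell.

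Promoters are shown for the genes with a changed transcript level at 8 weeks that the RefSeq (GRCm38.p6) promoter set used here lists. Each is given as 300 bases running 250 before to 50 after the transcription start, read on the gene's strand. They lie at chrX:20869916-20870215 for Timp1 and chr14:54431348-54431647 for Mmp14 on the plus strand, chr16:85803064-85803363 for Adamts1 on the minus strand, and chr11:50601835-50602134 for Adamts2 on the plus strand. The promoter set used here had no entry for Mmp2, which also changed at 8 weeks, or for Adamts5. Capitals mark exact matches, on either strand, to any of 7 motifs.
Timp1: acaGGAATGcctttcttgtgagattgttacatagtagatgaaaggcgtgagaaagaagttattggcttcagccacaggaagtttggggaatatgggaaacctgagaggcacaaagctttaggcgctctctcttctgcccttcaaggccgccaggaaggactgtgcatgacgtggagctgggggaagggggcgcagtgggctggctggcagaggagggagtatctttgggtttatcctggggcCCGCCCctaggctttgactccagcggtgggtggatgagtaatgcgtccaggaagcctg
Mmp14: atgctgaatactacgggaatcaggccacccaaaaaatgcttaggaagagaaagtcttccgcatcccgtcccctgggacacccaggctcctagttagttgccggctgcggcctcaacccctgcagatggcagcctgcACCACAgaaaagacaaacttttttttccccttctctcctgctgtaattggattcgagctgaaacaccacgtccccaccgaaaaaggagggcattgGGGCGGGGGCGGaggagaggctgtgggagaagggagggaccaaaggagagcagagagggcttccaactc
Adamts1: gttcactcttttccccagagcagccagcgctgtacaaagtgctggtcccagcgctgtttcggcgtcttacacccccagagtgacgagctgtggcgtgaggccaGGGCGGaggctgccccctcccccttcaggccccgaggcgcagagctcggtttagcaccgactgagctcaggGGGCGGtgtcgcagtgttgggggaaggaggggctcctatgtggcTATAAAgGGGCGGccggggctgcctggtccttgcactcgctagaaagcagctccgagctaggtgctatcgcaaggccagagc
Adamts2: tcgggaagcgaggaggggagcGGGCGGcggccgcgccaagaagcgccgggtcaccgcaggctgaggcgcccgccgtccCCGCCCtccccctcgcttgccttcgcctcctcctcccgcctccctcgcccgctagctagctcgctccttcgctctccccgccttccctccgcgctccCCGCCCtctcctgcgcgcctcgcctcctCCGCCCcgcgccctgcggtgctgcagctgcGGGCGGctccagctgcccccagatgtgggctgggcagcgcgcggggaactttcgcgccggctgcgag
Adamts2 carried 5 copies of the Sp1 letters GGGCGG, Adamts1 3, Mmp14 2 abutting copies and Timp1 1. Among the 8 members with a listed promoter, Adamts1 alone had the TATA letters TATAAA, at 32 to 27 bases before its start (-32 to -27). There the bases of an Sp1 match follow after 1 base. Timp1 held the TEAD letters CATTCC, read on the other strand, and Mmp14 the RUNX letters TGTGGT. Of 8 members with a listed promoter, 7 held the Sp1 letters, Mmp23 in 1 of its 2 listed promoters. The Sp1 letters stood in 35.7% of 32851 mouse promoters of this length, each counted singly. TATAAA stood in 13.6% of those promoters, CATTCC in 14.7% and TGTGGT in 16.8%. RUNX letters were also in Mmp23, the SMAD letters CAGACA (21.0% of promoters) in Timp4 and the STAT letters TTCNNNGAA (8.3%) in Mmp23. The AP-1 letters TGANTCA (7.81%) were in none of the 8, and no 2 matches overlapped. These are letter matches and not evidence of binding.

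The libraries held 16.53 to 19.47 M (mega) read pairs counted to genes in KO-8, 17.42 to 27.52 M in WT-8, 9.54 to 26.91 M in KO-16 and 8.63 to 19.68 M in WT-16. Mpc1, the deleted gene, had 8.41 to 11.98 CPM (counts scaled to library size with TMM factors) in KO-8 against 63.6 to 82.3 CPM in WT-8, and 9.03 to 26.2 CPM in KO-16 against 61.7 to 83.9 CPM in WT-16. The library of KO-16 with the most Mpc1 was replicate 1. A transcript of 18S ribosomal RNA, CT010467.1, took 1.71% to 29.96% of the counts in KO-16 and 6.88% to 39.1% in WT-16, but at most 0.067% at 8 weeks. Xist and Y-linked counts marked KO-16 replicate 4 and WT-16 replicate 5 as male and the other 17 libraries as female. The common coefficient of variation was 0.228 at 16 weeks and 0.0930 at 8 weeks. Both times were sequenced in separate runs, so time and run cannot be told apart. Summed levels of 10 cardiomyocyte markers were 89274 to 135462 CPM in the libraries, fitting the labelled tissue.

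At 8 weeks, the transcripts of Timp1, Mmp2, Mmp14 and Adamts2 rose in the knockout hearts and that of Adamts1 fell. In edgeR's quasi-likelihood test fitted to the 8-week libraries (Benjamini-Hochberg adjusted p under 0.05), these were 4 higher and 1 lower of 10 members, all 10 of which passed the low-count filter. Over all 15173 genes tested, 4.3% were higher and 3.91% lower. The median log2 fold change of the members was 0.32, against 0.00 over all genes. All KO-8 libraries lay above all WT-8 libraries for Mmp2, Mmp14 and Adamts2 (5.01% of all genes did so), and all lay below for Adamts1 (5.85% of all genes).

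**Figure D1:**
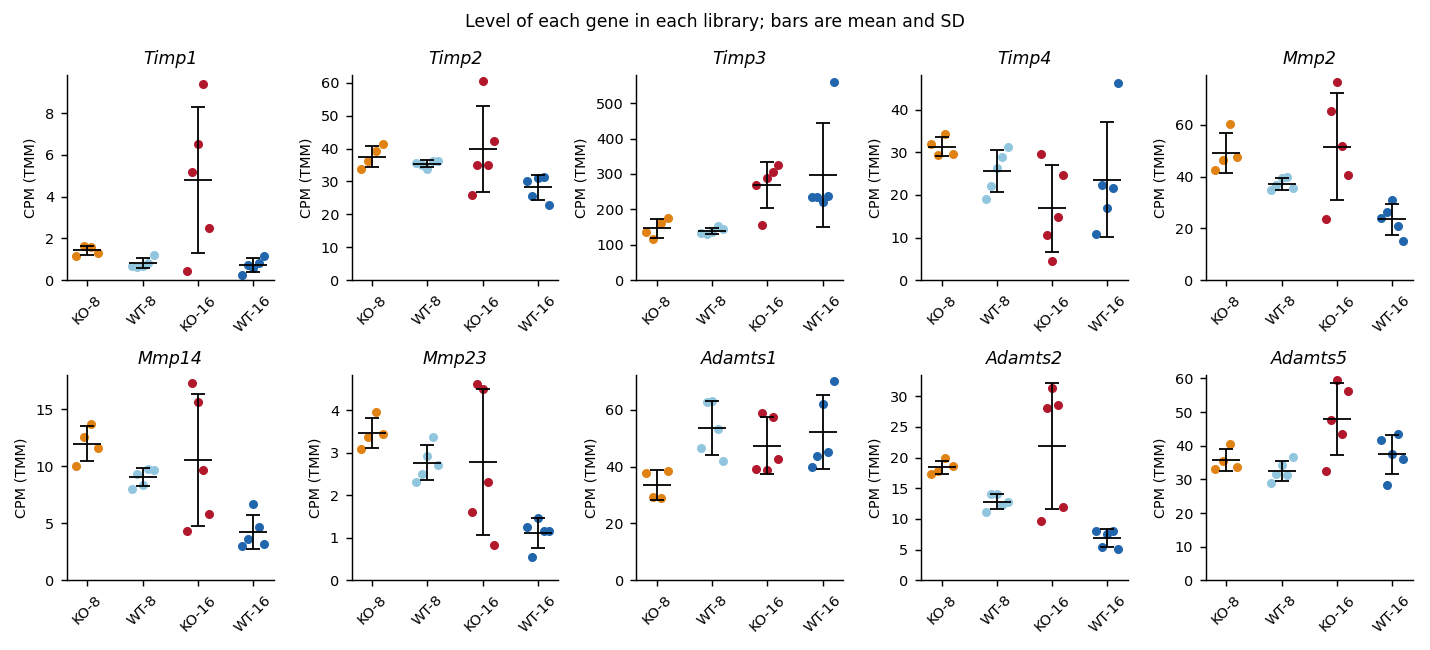
Level of each TIMP, MMP and ADAMTS gene (CPM with TMM factors, y axis from 0) in every library of KO-8, WT-8, KO-16 and WT-16, with the group mean and SD in black. Adamts2 points of the knockout groups lie above those of wild type at both times, and Timp3 has 1 WT-16 library at 559 CPM.

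Timp1, the inducible TIMP, lies on chromosome X (20870166 to 20874735, plus strand, GRCm38, here and below from the count files), inside the annotated span of Syn1, a neuronal gene on the other strand. It had 1.16, 1.63, 1.597 and 1.31 CPM in KO-8 libraries, against 0.674, 0.628, 0.654, 0.841 and 1.22 CPM in WT-8 libraries. Only WT-8 replicate 5 reached into the range of KO-8. The log2 fold change was 0.79 (SE 0.22, edgeR adjusted p = 0.0433), on 15 to 47 read pairs per library. This call depended on single libraries: it held in 2 of the 9 fits that left out 1 library, without WT-8 replicate 5 (adjusted p = 0.00905) or KO-8 replicate 1 (0.0467), and in the other fits the adjusted p was 0.0578 to 0.109.

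At 16 weeks, Timp1 had 0.421, 5.18, 6.53, 9.39 and 2.49 CPM in KO-16, against 0.253, 0.723, 0.598, 0.832 and 1.15 CPM in WT-16. Replicates 2 to 5 of KO-16 were above every WT-16 library, and replicate 1 was inside the WT-16 range. The gene missed the low-count filter, with 1 to 13 read pairs per WT-16 library and 6 to 186 per KO-16 library, so it has no value in the fit of this time. A fit with no filter gave a log2 fold change of 2.79 (SE 0.53, edgeR adjusted p = 0.00244), and a filter of 1 CPM in 4 libraries gave 2.78 (SE 0.66, adjusted p = 0.0425). With no filter, 1034 genes were called in place of 356. The edgeR adjusted p also fell for Mmp2 (from 0.0433 to 0.0026) and Adamts2 (from 0.0249 to 0.000226). When single libraries were left out, Timp1 passed the filter in 6 of 10 fits and the threshold in 1, without KO-16 replicate 1 (3.09, SE 0.41, adjusted p = 0.000665). In the other 5 of these fits, each without 1 WT-16 library, the adjusted p was 0.0768 to 0.106. Syn1, the host, averaged 0.217 ± 0.153 CPM in KO-16 and 0.195 ± 0.315 CPM in WT-16 (SD, n = 5 each).

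Timp2 (chromosome 11, 118301069 to 118355740, minus strand), an inhibitor that also takes part in Mmp2 activation, was close between genotypes at 8 weeks. It averaged 37.6 ± 3.32 CPM in KO-8 (SD, n = 4) and 35.5 ± 0.998 CPM in WT-8 (n = 5); the log2 fold change was 0.10 (SE 0.06, edgeR adjusted p = 0.389). Later, at 16 weeks, it ranged from 25.9 to 60.7 CPM in KO-16 and from 23.0 to 31.5 CPM in WT-16, with a log2 fold change of 0.50 (SE 0.20, edgeR adjusted p = 0.137). Only the lowest KO-16 library, replicate 1, overlapped WT-16. Cep295nl overlaps Timp2 on the same strand, so read pairs of the shared stretch are uncertain.

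Timp3 (chromosome 10, 86300372 to 86349506, plus strand, within Syn3 on the other strand), the matrix-bound inhibitor, had the highest level per kilobase of exon of the 10 genes in each group. Its libraries had 136, 115, 161 and 174 CPM in KO-8, against 132, 131, 136, 154 and 143 CPM in WT-8. At 16 weeks they had 269, 156, 288, 304 and 324 CPM in KO-16, against 234, 234, 220, 237 and 559 CPM in WT-16. The groups overlapped at both times, and the single high WT-16 library was the male replicate 5. The 8-week log2 fold change was 0.09 (SE 0.10, edgeR adjusted p = 0.651) and the 16-week value -0.14 (SE 0.27, adjusted p = 0.766). Without WT-16 replicate 5 the 16-week value was 0.22 (SE 0.18, adjusted p = 0.513), so the sign turned without that library. It also turned with the library kept in, without KO-16 replicate 2 (0.0041), with voom with quality weights (0.042) and with the 18S covariate (0.0536). Syn3 averaged 0.406 ± 0.208 CPM in KO-16 and 0.936 ± 0.773 CPM in WT-16 (SD, n = 5 each).

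Timp4 (chromosome 6, 115241892 to 115252205, minus strand, within Syn2 on the other strand), the TIMP best known from heart muscle, had 32.0, 29.4, 34.3 and 29.7 CPM in KO-8, against 19.1, 22.2, 26.3, 29.0 and 31.4 CPM in WT-8. Its log2 fold change of 0.30 (SE 0.12, edgeR adjusted p = 0.140) did not pass. Without WT-8 replicate 5, the highest of its group, it was 0.39 (SE 0.11, adjusted p = 0.0416). Timp4 at 16 weeks had 29.5, 10.7, 4.38, 14.9 and 24.7 CPM in KO-16, against 10.9, 22.4, 17.02, 21.6 and 46.2 CPM in WT-16. The groups overlapped along most of their range, and the log2 fold change was -0.49 (SE 0.45, adjusted p = 0.497). Without WT-16 replicate 5 it was -0.12, and without KO-16 replicate 1 it was -0.83, neither past the threshold. Syn2 averaged 2.77 ± 0.38 CPM in KO-8 (n = 4), 2.72 ± 0.36 CPM in WT-8, 2.06 ± 0.64 CPM in KO-16 and 1.48 ± 0.52 CPM in WT-16 (SD, n = 5 each).

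Mmp2, the gelatinase that cuts denatured and basement membrane collagen, lies on chromosome 8 (92827291 to 92853420, plus strand). It had 42.4, 46.4, 60.3 and 47.5 CPM in KO-8, against 34.8, 36.6, 39.4, 39.9 and 35.5 CPM in WT-8. The groups did not overlap, and the log2 fold change was 0.41 (SE 0.09, edgeR adjusted p = 0.0121). It passed in each of the 9 fits without 1 library, with values of 0.30 to 0.48. Mmp2 at 16 weeks had 23.7, 65.2, 76.4, 52.0 and 40.7 CPM in KO-16, against 24.0, 26.2, 31.0, 21.0 and 15.2 CPM in WT-16. Replicate 1 of KO-16 lay within WT-16 and the other KO-16 libraries lay above. The log2 fold change was 1.13 (SE 0.27, adjusted p = 0.0433).

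Mmp14, the membrane protease that activates Mmp2 (chromosome 14, 54431612 to 54445364, plus strand), had 10.01, 12.6, 13.7 and 11.6 CPM in KO-8, against 8.02, 9.33, 8.37, 9.74 and 9.71 CPM in WT-8. Its groups did not overlap, and the log2 fold change of 0.42 (SE 0.10, edgeR adjusted p = 0.0175) was close to that of Mmp2. Without KO-8 replicate 3 the adjusted p was 0.0556, and in the other 8 such fits it passed. Mmp14 at 16 weeks had 4.35, 17.3, 15.7, 9.64 and 5.81 CPM in KO-16, against 3.03, 3.61, 6.71, 4.66 and 3.22 CPM in WT-16. KO-16 replicates 1 and 5 lay inside the range of WT-16. The log2 fold change was 1.26 (SE 0.37, adjusted p = 0.0727), short of the threshold.

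Mmp23, a membrane-tethered MMP (chromosome 4, 155650655 to 155653384, minus strand), was low throughout. It had 3.09, 3.38, 3.95 and 3.43 CPM in KO-8, against 2.31, 2.51, 2.92, 3.37 and 2.72 CPM in WT-8, with 1 WT-8 library inside the KO-8 range and a log2 fold change of 0.34 (SE 0.13, edgeR adjusted p = 0.129). Mmp23 at 16 weeks had 1.61, 4.63, 4.50, 2.32 and 0.830 CPM in KO-16, against 1.26, 0.542, 1.47, 1.16 and 1.15 CPM in WT-16. Replicate 5 of KO-16 lay within WT-16, on 5 read pairs. The log2 fold change was 1.33 (SE 0.44, adjusted p = 0.0946).

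Adamts1, an inducible proteoglycan-cutting protease, was the member that fell. It lies on chromosome 16 (85793827 to 85803113, minus strand), 53059 bases from Adamts5 on the same strand. It had 37.7, 29.1, 28.9 and 38.3 CPM in KO-8, against 46.4, 62.7, 63.1, 53.3 and 41.9 CPM in WT-8. Every KO-8 library was below every WT-8 library, and the log2 fold change was -0.66 (SE 0.13, edgeR adjusted p = 0.00555), passing in all 9 fits without 1 library. Adamts1 at 16 weeks had 39.0, 58.8, 38.8, 57.5 and 42.7 CPM in KO-16, against 39.9, 43.5, 61.9, 45.1 and 70.1 CPM in WT-16. Those groups overlapped widely, with a log2 fold change of -0.13 (SE 0.18, edgeR adjusted p = 0.663).

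Adamts2, the procollagen amino-propeptidase, had the smallest adjusted p of the members at both times. It lies on chromosome 11 (50602084 to 50807573, plus strand), with 3 annotated transcripts on the other strand, which the stranded counting kept apart. Its libraries had 17.4, 17.8, 19.8 and 18.6 CPM in KO-8, against 11.1, 14.02, 14.1, 12.2 and 12.7 CPM in WT-8. Between these separate groups the log2 fold change was 0.54 (SE 0.08, edgeR adjusted p = 0.00124), and it passed in all 9 fits without 1 library. At 16 weeks it had 9.60, 28.0, 31.3, 28.5 and 11.96 CPM in KO-16, against 8.09, 5.42, 7.59, 7.99 and 5.06 CPM in WT-16. No KO-16 library overlapped WT-16, although replicates 1 and 5 of KO-16 lay nearer to it than the other KO-16 libraries. The log2 fold change was 1.68 (SE 0.32, adjusted p = 0.0249).

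Adamts5, the other proteoglycan-cutting ADAMTS followed here (chromosome 16, 85856173 to 85901828, minus strand), averaged 35.7 ± 3.36 CPM in KO-8 (SD, n = 4) and 32.5 ± 3.004 CPM in WT-8 (n = 5). The groups overlapped, with a log2 fold change of 0.15 (SE 0.08, edgeR adjusted p = 0.305). At 16 weeks it averaged 47.9 ± 10.7 CPM in KO-16 and 37.4 ± 5.88 CPM in WT-16 (n = 5 each), with a log2 fold change of 0.36 (SE 0.17, edgeR adjusted p = 0.191). Its neighbour Adamts1 had a value of the opposite sign at each time, except under voom with quality weights at 16 weeks, where Adamts1 had 0.00097.

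At 8 weeks the calls rest on the spread of those 9 libraries. When all 19 libraries shared 1 estimate of the spread, no member passed at 8 weeks, with the adjusted p from 0.161 (Adamts1) to 0.979 (Timp3), and 31 genes passed in place of 1245.

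At 16 weeks, the rises of Mmp2 and Adamts2 passed the test among 9 members that passed the low-count filter, and none fell. Of 12597 genes tested, 1.88% were higher and 0.945% lower, which is 237 and 119 genes. That balance depended on the tool: limma-voom called 106 genes higher and 226 lower, and voom with quality weights 1197 higher and 1317 lower. The median log2 fold change was 0.50 over the 9 members and 0.01 over all genes. Adamts2 was the 1 member with all KO-16 libraries above WT-16 (2.12% of all genes), and no member had all below (2.56% of all genes).

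These 2 calls were fragile, while the sizes were less so. Over the 10 fits without 1 library, the log2 fold change of Adamts2 stayed between 1.52 and 1.87 and that of Mmp2 between 0.95 and 1.31. Both calls were lost without any 1 of WT-16 replicates 1, 2, 4 or 5 or KO-16 replicates 2, 3 or 4, where the adjusted p was 0.0566 to 0.0821 for Adamts2 and 0.0941 to 0.118 for Mmp2. Without WT-16 replicate 3, Adamts2 passed (adjusted p = 0.0410) and Mmp2 did not (0.0509). Without KO-16 replicate 5, 4 members passed, Mmp2, Mmp14 (adjusted p = 0.0302), Mmp23 (0.0270) and Adamts2 (0.00843). In that fit 1008 of 13086 genes tested were higher.

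KO-16 replicate 1, which kept the most Mpc1, lay inside the WT-16 range for Timp1, Timp2, Mmp2 and Mmp14 and just above it for Mmp23 and Adamts2. Without it, 7 members were higher, where 7.17% of all genes were: Timp1, Timp2 (0.62, SE 0.17, edgeR adjusted p = 0.0321), Mmp2 (1.31, SE 0.21, adjusted p = 0.00177), Mmp14 (1.46, SE 0.32, 0.0104), Mmp23 (1.49, SE 0.44, 0.0393), Adamts2 (1.87, SE 0.25, 0.000687) and Adamts5 (0.47, SE 0.14, 0.0441). With all 19 libraries in the fit, 6 members were higher (11.2% of all genes), these without Adamts5. Timp3, Timp4 and Adamts1 did not pass in either fit. KO-16 replicate 1 was the lowest KO-16 library for Timp1, Timp2, Mmp2, Mmp14, Adamts2 and Adamts5. Leaving it out therefore raises the fold changes of these genes by construction. Whether its Mpc1 level had a part was not tested.

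**Figure D2:**
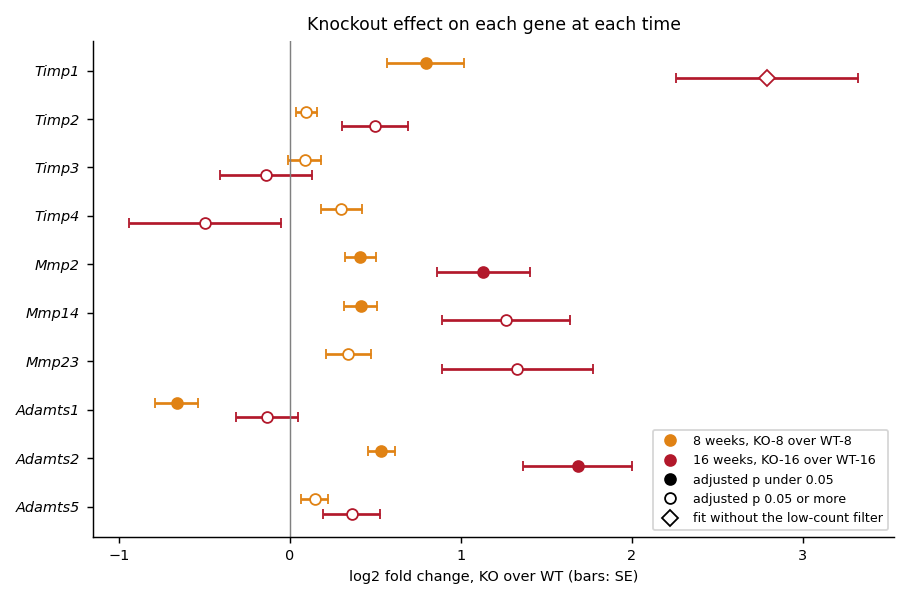
Log2 fold change of each gene, KO over WT, with its SE, at 8 weeks (orange) and 16 weeks (red), from edgeR fits to the libraries of each time. Filled circles passed an adjusted p of 0.05: Timp1, Mmp2, Mmp14, Adamts1 and Adamts2 at 8 weeks, Mmp2 and Adamts2 at 16 weeks. The diamond is Timp1 at 16 weeks from the fit without the low-count filter (2.79), which called 1034 genes in place of 356.

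The 18S share moved with the 16-week groups in part. It was 12.7%, 1.71%, 5.66%, 29.96% and 26.1% of counts in KO-16, against 39.1%, 25.2%, 6.88%, 23.2% and 29.7% in WT-16. The groups overlapped, and KO-16 replicates 2 and 3, with shares below every WT-16 library, were the highest for Mmp2 and Mmp14. With the 18S share as a covariate, the log2 fold change was 1.59 (SE 0.35, edgeR adjusted p = 0.0839) for Adamts2, 0.96 (SE 0.28, adjusted p = 0.133) for Mmp2 and 0.93 (SE 0.32, adjusted p = 0.189) for Mmp14. Each 16-week group had 1 male library. Without both, it was 1.496 (SE 0.36, adjusted p = 0.149) for Adamts2, 1.01 (SE 0.30, adjusted p = 0.194) for Mmp2 and 1.22 (SE 0.44, adjusted p = 0.237) for Mmp14.

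**Figure D3:**
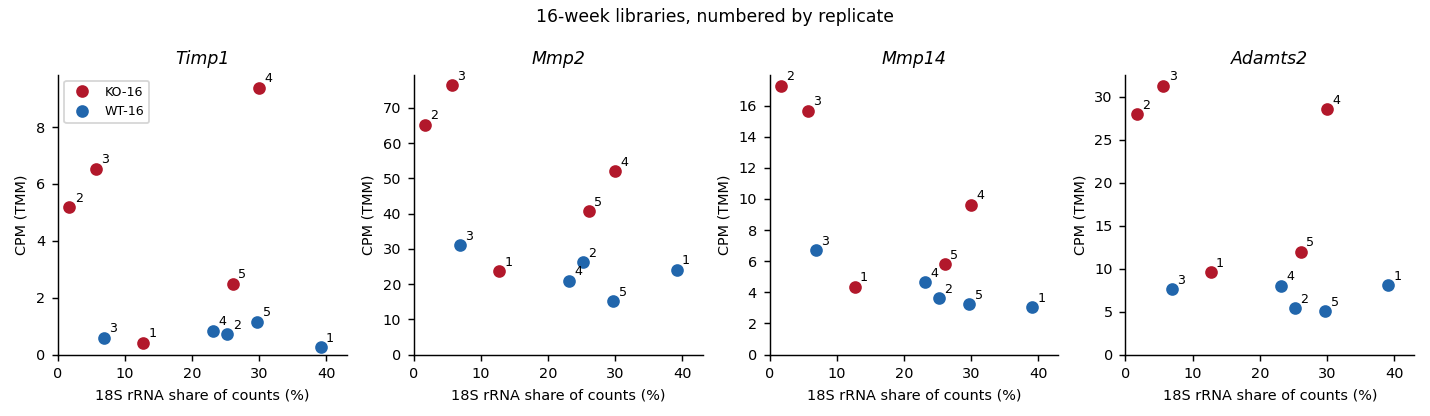
CPM of Timp1, Mmp2, Mmp14 and Adamts2 (y axes from 0) against the share of counts in 18S ribosomal RNA (x axis, %) in the 10 libraries of 16 weeks, KO-16 in red and WT-16 in blue, numbered by replicate. Shares run from 1.71% to 29.96% in KO-16 and from 6.88% to 39.1% in WT-16.

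The knockout effects at 16 and 8 weeks were set against each other in a fit to all 19 libraries. The difference was largest for Timp1, with a log2 value of 2.00 (SE 0.76, edgeR adjusted p = 0.323), and for Adamts2, with 1.15 (SE 0.35, adjusted p = 0.286). Mmp23 had 1.02 (SE 0.46, adjusted p = 0.360), Mmp14 0.83 (SE 0.41, adjusted p = 0.396), Mmp2 0.72 (SE 0.32, adjusted p = 0.355), Adamts1 0.53 (SE 0.24, adjusted p = 0.366), Timp2 0.40 and Adamts5 0.22. The value was negative for Timp4, at -0.80 (SE 0.51, adjusted p = 0.496), and for Timp3, at -0.22 (SE 0.32, adjusted p = 0.784). No member passed, and 0 of 15503 genes did (0.0%), although 2000 genes had an unadjusted p under 0.05 and DESeq2 called 30. Without KO-16 replicate 1, 3 members differed between times, Adamts2 (1.35, SE 0.27, adjusted p = 0.00976), Timp1 (2.31, SE 0.49, adjusted p = 0.0138) and Mmp2 (0.90, SE 0.24, adjusted p = 0.0398), and 613 genes did. With all libraries in, voom with quality weights called Adamts2 (1.19, SE 0.30, adjusted p = 0.0393) among 527 genes, and no other alternative fit to all 19 libraries called a member.

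Levels of different genes were compared as CPM per kilobase of exon. In KO-8, Timp3 averaged 18.01 ± 3.23, Mmp2 14.6 ± 2.30, Timp2 9.65 ± 0.85, Adamts1 6.32 ± 0.98 and Timp4 5.32 ± 0.39 CPM per kb (SD, n = 4). In WT-8, Timp3 averaged 17.1 ± 1.17, Mmp2 11.05 ± 0.69, Adamts1 10.1 ± 1.79, Timp2 9.10 ± 0.26 and Timp4 4.34 ± 0.85 CPM per kb (SD, n = 5). Adamts1 and Timp2 thus traded places, although their ranges overlapped in WT-8. Adamts5 followed at 3.31 ± 0.31 in KO-8 and 3.01 ± 0.28 in WT-8, and Mmp14, Adamts2, Timp1 and Mmp23 stayed between 1.48 and 2.01 in KO-8 and between 0.904 and 1.52 in WT-8.

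At 16 weeks, Timp3 averaged 33.0 ± 8.08 CPM per kb in KO-16 and 36.4 ± 18.0003 in WT-16 (SD, n = 5 each). Mmp2 came next in KO-16 at 15.3 ± 6.11, and in WT-16, at 6.96 ± 1.75, came behind Adamts1 (9.83 ± 2.48) and Timp2 (7.24 ± 0.97), whose ranges overlapped with its own. Timp1 averaged 5.41 ± 3.93 in KO-16, with a mean below every Adamts1 library and within the range of Adamts5, and 0.801 ± 0.369 in WT-16. Each pair of neighbours in the KO-16 order had overlapping ranges. In WT-16, ranges were apart between Timp3 and Adamts1, and between Adamts5 and Timp1.

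The make-up of the pools is given as a description, without a test. Timp1 made up 4.07%, 6.06%, 4.80% and 3.82% of the summed TIMP level per kb in KO-8, against 2.58%, 2.39%, 2.41%, 2.78% and 4.09% in WT-8. At 16 weeks its share was 1.05%, 16.3%, 12.5%, 17.8% and 4.87% in KO-16, against 0.737%, 2.04%, 1.75%, 2.25% and 1.55% in WT-16. The share was above all wild-type libraries of the same time in KO-16 replicates 2 to 5. Timp3 held 51.8% ± 3.66 of the TIMP level in KO-8, 54.4% ± 1.21 in WT-8, 63.7% ± 7.65 in KO-16 and 73.7% ± 5.06 in WT-16 (SD).

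Within the proteases, the ratio of Adamts1 to Adamts2 per kb was 3.83, 2.88, 2.57 and 3.62 in KO-8, against 7.39, 7.88, 7.89, 7.68 and 5.80 in WT-8. At 16 weeks it was 7.16, 3.70, 2.19, 3.54 and 6.29 in KO-16, against 8.69, 14.1, 14.4, 9.94 and 24.4 in WT-16. This ratio was lower in every knockout library than in every wild-type library of its time. At 8 weeks that follows from the separate groups of both genes, and at 16 weeks Adamts2 alone already lay apart. The ratio is thus no separate result. Mmp2 over Timp2 averaged 1.51 ± 0.19 in KO-8 and 1.22 ± 0.09 in WT-8, and 1.498 ± 0.45 in KO-16 and 0.959 ± 0.203 in WT-16, with overlap at both times. The summed level of the 6 proteases over that of the 4 TIMPs averaged 0.862 ± 0.064 in KO-8 and 0.902 ± 0.104 in WT-8. It averaged 0.691 ± 0.302 in KO-16 and 0.500 ± 0.152 in WT-16, a difference within the SD of KO-16.

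**Figure D4:**
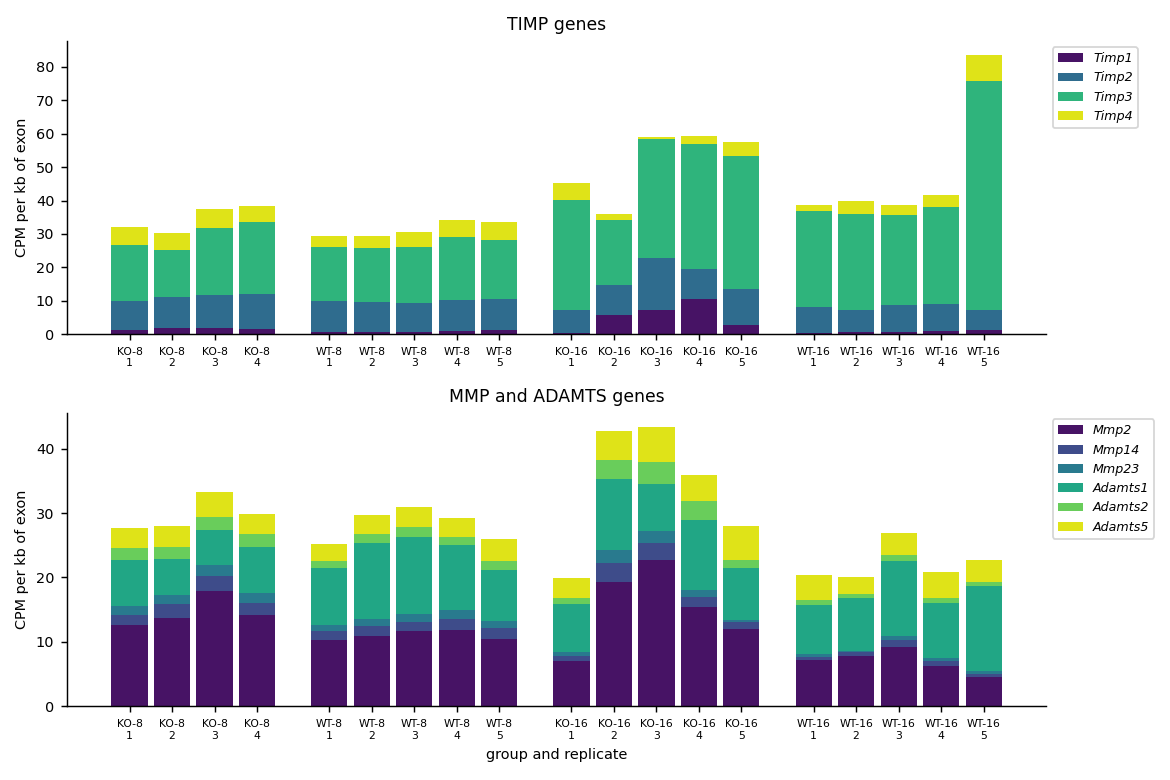
Level per kilobase of exon (CPM per kb, y axis from 0) of the 4 TIMP genes (above) and the 6 MMP and ADAMTS genes (below), stacked for each library of KO-8, WT-8, KO-16 and WT-16. Timp3 makes up most of the TIMP level at 16 weeks, and Timp1 reaches 17.8% of it in KO-16 replicate 4.

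Other genes of matrix turnover were read from lists of related genes. None of the other 20 MMPs passed at either time, of 8 tested at 8 weeks (median log2 fold change 0.05) and 6 at 16 weeks (-0.17). Mmp15, a membrane-type MMP, had 41.0 ± 3.87 CPM in KO-8 and 46.4 ± 2.94 CPM in WT-8 (log2 fold change -0.17, SE 0.07, edgeR adjusted p = 0.152). The collagenase genes Mmp1a and Mmp1b and the stromelysin and matrilysin genes Mmp10 and Mmp7 had no read pair counted in any group.

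Of 18 other ADAMTS and ADAMTS-like genes tested at 8 weeks, 2 rose and 1 fell. The shares of all genes tested were 4.3% higher and 3.91% lower at 8 weeks, and 1.88% and 0.945% at 16 weeks. Counts of 1 or 2 genes in a list are too few to be told from those shares. Adamtsl2, which encodes a matrix protein without protease activity, averaged 35.4 ± 11.2 CPM in KO-8 and 17.4 ± 2.66 CPM in WT-8 (log2 fold change 1.04, SE 0.17, edgeR adjusted p = 0.00224). Adamts4, a proteoglycan-cutting enzyme, rose by 0.79 (SE 0.19, adjusted p = 0.0209) and Adamtsl3 fell by 0.31 (SE 0.08, adjusted p = 0.0287). At 16 weeks Adamtsl2 rose to 42.5 ± 27.2 CPM in KO-16, against 6.09 ± 2.66 CPM in WT-16 (2.77, SE 0.44, adjusted p = 0.0111), and Adamts7 fell by 1.21 (SE 0.29, adjusted p = 0.0423), of 14 tested. Adamtsl2 passed in all 10 fits without 1 library at 16 weeks but not without both male libraries. The Adamts7 call held in 2 of those 10 fits, without KO-16 replicate 1 or 5, and was lost without the male libraries, with the 18S covariate and with the earlier file. The Adamtsl3 call at 8 weeks held in 3 of 9 such fits, without WT-8 replicate 2 or KO-8 replicate 2 or 4. Adamts4 at 16 weeks had 1.76 (SE 0.59, adjusted p = 0.0954). Of the membrane-bound ADAM enzymes, 8 tested at 8 weeks, Adam12 rose by 1.36 (SE 0.23, adjusted p = 0.00287) and Adam19 fell by 0.54 (SE 0.09, adjusted p = 0.00220); none of 6 passed at 16 weeks.

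Among other matrix proteases, 2 of 16 rose at 8 weeks, Plat, which encodes tissue plasminogen activator, by 0.41 (SE 0.08, edgeR adjusted p = 0.00972), and Bmp1, the procollagen carboxy-propeptidase, by 0.20 (SE 0.06, adjusted p = 0.0463). All genes tested had shares of 4.3% higher and 3.91% lower at 8 weeks, and 1.88% and 0.945% at 16 weeks. The Plat call held in all 9 fits without 1 library and that of Bmp1 in 2, without KO-8 replicate 1 or 2; Bmp1 also missed the threshold with no filter, DESeq2 and both voom fits. At 16 weeks 1 of 14 did, the serine protease Prss23 (1.15, SE 0.26, adjusted p = 0.0370), and the collagen-cutting cathepsin Ctsk had 1.49 (SE 0.38, adjusted p = 0.0530). The Prss23 call held in 3 of 10 fits without 1 library, without WT-16 replicate 3 or KO-16 replicate 1 or 5. Of 14 other inhibitors and partners tested at 8 weeks, 5 rose and 1 fell. Lowest in adjusted p among the risers were Serpine2, which blocks plasminogen activators (0.63, SE 0.12, adjusted p = 0.00471), Serpinf1 (0.66, SE 0.12, adjusted p = 0.00363), Sparc (0.70, SE 0.10, adjusted p = 0.00108) and Pcolce, which speeds procollagen trimming (0.47, SE 0.05, adjusted p = 0.000193). Plaur, the urokinase receptor, named after its values were seen, fell by 0.74 (SE 0.22, adjusted p = 0.0478), a call lost in each of the 9 fits without 1 library (adjusted p = 0.0557 to 0.108), with upper-quartile factors and with voom with quality weights. At 16 weeks 4 of 13 rose, Serpinf1 (2.12, SE 0.38, adjusted p = 0.0196), Sparc (1.48, SE 0.29, adjusted p = 0.0274), the cathepsin inhibitor Cst3 (0.76, SE 0.18, adjusted p = 0.0433) and Serpine2 (1.03, SE 0.26, adjusted p = 0.0482). That count was 0 to 9 without 1 library, with 9 without KO-16 replicate 5, 8 without KO-16 replicate 1, and 0 without any 1 of WT-16 replicates 1, 2, 4 and 5 and KO-16 replicate 4. It was 1 with limma-voom, and 0 without the male libraries or with the 18S covariate. With all 19 libraries in the fit, no ADAMTS, inhibitor or fibroblast list had a gene past the threshold at 8 weeks.

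Most genes tested for proteins that these enzymes cut rose at both times. Of 16 substrate genes tested at 8 weeks, 13 rose (4.3% of all genes did) and none fell, with a median log2 fold change of 0.55. Col3a1 averaged 346 ± 37.0 CPM in KO-8 and 201 ± 19.4 CPM in WT-8 (0.79, SE 0.09, edgeR adjusted p = 0.000124), and Col1a2, Col4a1 and Col4a2 had 0.74, 0.64 and 0.57. The count of 13 held in all 9 fits without 1 library and was 1 of 17 with all 19 libraries in the fit. At 16 weeks 11 of 16 rose (1.88% of all genes did), with a median of 1.46. Col3a1 averaged 410 ± 176 CPM in KO-16 and 117 ± 35.8 CPM in WT-16 (1.81, SE 0.32, adjusted p = 0.0188), Eln, which encodes elastin, had 2.17 and Fbn1, which encodes fibrillin, 1.61. This count was 13 without KO-16 replicate 1 or 5, 9 without WT-16 replicate 3, 0 to 4 without any 1 other library, 7 with limma-voom, and 0 without the male libraries or with the 18S covariate.

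**Figure D5:**
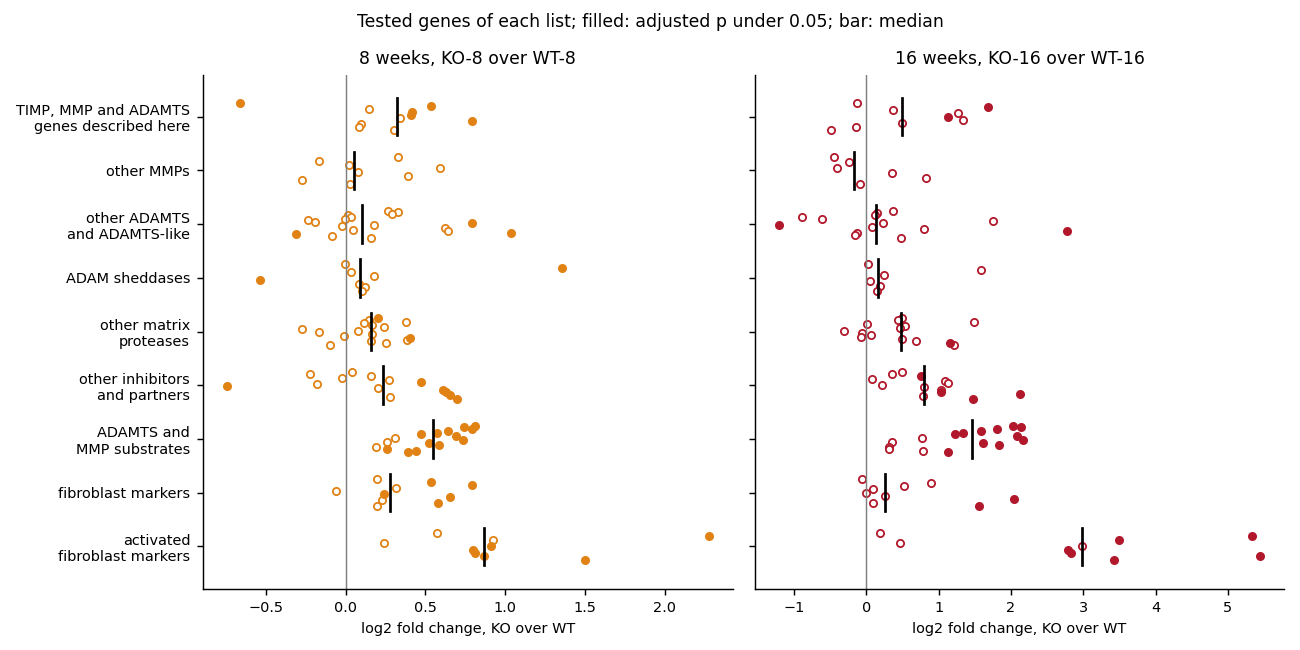
Log2 fold change, KO over WT, of the tested genes of 9 lists at 8 weeks (left) and 16 weeks (right), with filled points past an adjusted p of 0.05 and a bar at the median; the x axes have different scales. The substrate list has a median of 0.55 at 8 weeks and 1.46 at 16 weeks, and the activated fibroblast list 0.87 and 2.97.

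Most tested markers of activated fibroblasts rose at both times, which held for only some of the members. Of all genes tested, 4.3% were higher at 8 weeks and 1.88% at 16 weeks. At 8 weeks 6 of 9 rose (median log2 fold change 0.87) and their summed level over 10 genes was 150 to 288 CPM in KO-8 and 92.6 to 131 CPM in WT-8. At 16 weeks 6 of 9 rose (median 2.97), with sums of 134 to 1071 CPM in KO-16 and 69.3 to 150 CPM in WT-16. Postn, which encodes the matricellular protein periostin, had 46.7, 421, 376, 376 and 152 CPM in KO-16, against 29.1, 36.1, 49.9, 43.9 and 33.1 CPM in WT-16. The KO-16 libraries high in Postn were those high in Adamts2, replicates 2, 3 and 4, and replicate 1 was low in both. That 16-week count was 8 without KO-16 replicate 1, 7 without replicate 5, 1 to 4 without any 1 other library, 1 with limma-voom, 0 without the male libraries and 2 once 18S was a covariate. General fibroblast markers rose in 5 of 10 at 8 weeks and 2 of 9 at 16 weeks, Pi16 (1.56, SE 0.29, edgeR adjusted p = 0.0223) and Mfap5 (2.04, SE 0.45, adjusted p = 0.0356), with sums of 730 to 950 CPM in KO-16 and 591 to 775 CPM in WT-16. The 8-week count was 3 without WT-8 replicate 1, 3 or 4 or KO-8 replicate 3, and 4 without any 1 other library. The 16-week count was 3 without KO-16 replicate 1 or 5, 1 without WT-16 replicate 3 or KO-16 replicate 3, and 0 without any 1 other library, without the male libraries or with the 18S covariate. Pdgfra, a general fibroblast marker named after its values were seen, had 44.3 to 70.1 CPM in KO-16 and 44.3 to 53.1 CPM in WT-16 (0.09, SE 0.13, adjusted p = 0.709). The part of fibroblast number in the changes of the members was not tested.

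Markers of other cell types were read in the same libraries. Over all genes tested, 4.3% were higher and 3.91% lower at 8 weeks, and 1.88% and 0.945% at 16 weeks. Endothelial markers rose in 3 of 10 at 8 weeks, with sums of 784 to 863 CPM in KO-8 and 719 to 767 CPM in WT-8, and in 1 of 10 at 16 weeks, with 690 to 948 CPM in KO-16 and 596 to 687 CPM in WT-16. Smooth muscle and pericyte markers had 4 higher and 1 lower of 9 at 8 weeks (1061 to 1190 CPM in KO-8, 1121 to 1178 CPM in WT-8) and 1 higher of 9 at 16 weeks (994 to 1398 CPM in KO-16, 1250 to 1556 CPM in WT-16). At 16 weeks the endothelial Tie1 and the smooth muscle Tagln each passed in only 3 of 10 fits without 1 library (edgeR adjusted p up to 0.105 and 0.0935). The endothelial Cdh5 and Egfl7 and the smooth muscle Myh11 passed in all 9 such fits at 8 weeks. None of 10 macrophage markers passed at either time, with sums of 203 to 214 CPM in KO-8, 187 to 222 CPM in WT-8, 165 to 221 CPM in KO-16 and 148 to 190 CPM in WT-16. Neutrophil markers summed to at most 4.30 CPM in any library, with Mpo and Elane at 0 in all groups. Erythroid markers had 1 lower of 7 at 8 weeks (median log2 fold change -0.74), with sums of 257 to 569 CPM in KO-8 and 432 to 957 CPM in WT-8. At 16 weeks none of 5 passed, with a median of 1.78 and sums of 48.0 to 1136 CPM in KO-16 and 53.3 to 133 CPM in WT-16. Cardiomyocyte markers fell in 2 of 10 at 8 weeks, with sums of 106742 to 114140 CPM in KO-8 and 111222 to 115420 CPM in WT-8. At 16 weeks none of 10 passed, with a median of -0.21 and sums of 89274 to 128281 CPM in KO-16 (median 97422) and 118988 to 135462 CPM in WT-16 (median 125806). Valve and cartilage markers had 0 of 2 tested called at 8 weeks and 1 of 2, Comp, higher at 16 weeks, where the 8 genes summed to 2.94 to 79.96 CPM in KO-16 and 1.99 to 5.82 CPM in WT-16. Comp is also among the activated fibroblast markers above. Mesothelial markers had 1 lower of 7 at 8 weeks and 0 of 6 at 16 weeks. The part of these cells in the members' changes was not tested.

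The genes whose log2 CPM ran most like those of the 2 members called at 16 weeks were sought over the 10 libraries of that time, which share run, depth and 18S differences. For Adamts2 they were Kif26b (Pearson r = 0.99), Rcn3 (0.98) and Il18bp (0.98), with 0.88, 0.96 and 0.96 over all 19 libraries. For Mmp2 they were Lhfpl2, Unc5b and Itih5 (each 0.98), with 0.92, 0.96 and 0.77 over all 19. Mmp2 and Adamts2 had an r of 0.93 with each other at 16 weeks, Mmp2 and Mmp14 0.93, and Timp4 had -0.78 with Mmp2. Adamts1 had -0.07 against Adamts2 and -0.11 against Mmp2, and Timp3 had -0.30 and -0.41. Over the 9 libraries of 8 weeks, Adamts1 had -0.69 against Adamts2 and -0.72 against Mmp2. There Timp4 had 0.66 with Mmp2, and Timp3 had 0.25 against Adamts2 and 0.42 against Mmp2. These values of Timp4 and Timp3 were opposite in sign to those of 16 weeks. These values are descriptions of 9, 10 or 19 libraries, in 2 groups at each time.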

How the data were processed

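The deposited values were gene counts (read pairs per gene), which per the file headers the authors made with featureCounts 1.6.3, in paired, reverse-stranded mode, a pair going to the gene it overlaps most, with Ensembl 96 models on GRCm38. In the submitters' processing notes, STAR, RSEM, SAMtools, FastQC and cutadapt 1.16 are listed with no role or order. Counts of the 2 files of each 16-week sample were summed; chi-square per gene was 1.34 to 3.15 between such files and 6.305 or more between any pair of libraries within a group. All 55536 genes matched the GENCODE annotation by start, end and strand. Library totals were 8.63 to 27.52 M (mega) read pairs.

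Differences were tested with edgeR 4.0.16 in R 4.3.3 (TMM factors, filterByExpr, quasi-likelihood test, Benjamini-Hochberg over all genes tested, threshold 0.05) on the libraries of each time, and between times on all 19. SE was taken as |log2 fold change| / √F. CPM used TMM factors over all 19 libraries. Correlations used log2 CPM with a prior count of 2. Alternatives were other scaling factors, other filters, DESeq2 1.42.0, limma 3.58.1 voom with and without quality weights, all 19 libraries in 1 fit, 1 file per 16-week sample, mitochondrial and ribosomal genes left out, male libraries left out, the 18S share as a covariate, and each library left out. Summaries used Python 3.11.15, numpy 2.4.6, pandas 2.3.3 and matplotlib 3.10.9. The fits were also run on simulated counts. Those libraries shared a gene profile apart from set changes, so they do not cover the 18S differences at 16 weeks.

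The members and all 17 other lists were chosen with earlier results of these data known. Named genes were the members, Mpc1, the 18S gene, the TIMP hosts, per list and time the (up to) 4 lowest in adjusted p, and the 3 genes most like each member called at 16 weeks (mean of at least 5 CPM). Mmp1a, Mmp1b, Mmp7, Mmp10, Mpo, Elane, Pdgfra and Plaur fall outside this rule and were named after their values were seen. 1 gene that list counts include is not reported here by name.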

Additional observations from a re-analysis of the deposited data

Results flagged for a closer look

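Timp3 had 558.769 CPM in WT-16 replicate 5, against 220 to 237 CPM in the other 4 WT-16 libraries. The gap to the nearest library was 0.951 of the range of the group, above the critical value for 5 samples. It was the 1 value singled out among 40 gene and group combinations, and chance singles out about 1 in 20. The library is 1 of the 2 male libraries of 16 weeks. The other male library, KO-16 replicate 4, had 304 CPM, inside the range of the female KO-16 libraries (156 to 324 CPM).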

How the results depend on the processing

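No paired analysis was possible because the labels give no replicate numbers shared between groups. At 8 weeks, 1245 genes and 5 members were called, and 31 genes and 0 members with all 19 libraries in 1 fit; leaving out 1 library gave 872 to 1163 genes and 3 to 6 members, and the other alternatives stayed within 1.5 times. At 16 weeks, 356 genes and 2 members were called. There, no filter gave 1034 genes and 4 members, DESeq2 1166 genes, voom with quality weights 2514 genes and 4 members, all 19 libraries 3181 genes and 6 members, limma-voom 0 members, the earlier file 1 member, leaving out the male libraries 10 genes and 0 members, and the 18S covariate 28 genes and 0 members. Leaving out 1 library gave 29 to 1856 genes and 0 to 7 members. Between times, 0 genes and 0 members were called, against 43 genes with no filter, 30 with DESeq2, 527 genes and 1 member with voom with quality weights, and 0 to 613 genes and 0 to 3 members without 1 library. Signs turned for Timp3 at 8 weeks (-0.00096 without KO-8 replicate 4, over a range to 0.19 without 1 library), for Timp3 at 16 weeks (0.042 with voom with quality weights, 0.17 without the male libraries, 0.0536 with the 18S covariate, -0.23 to 0.22 without 1 library), for Adamts1 at 16 weeks (0.00097 with voom with quality weights) and for Timp3 between times (0.0078 with voom with quality weights, 0.0884 without the male libraries, -0.32 to 0.14 without 1 library). The cause of these shifts was not tested. Depth limits Timp1 and Mmp23 most, with 1 to 13 and 3 to 32 read pairs per WT-16 library.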
